A study of Mus musculus with 5 samples.

Results

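The genes described here are 10 receptors and surface genes of blood vessels: the VEGF receptors Kdr, Flt1 and Flt4, the Tie receptors Tek and Tie1 with the ligand Angpt2, the junction and surface genes Cdh5, Pecam1 and Eng, and the apelin receptor Aplnr. They were taken by symbol from the platform annotation, and all 10 were measured, each by 1 probe set (called a probe below), among 22203 probes and 19505 named genes. Expression was measured in subcutaneous melanomas of wildtype C57BL/6 mice aged 10 weeks, grown from the mouse melanoma line B16.F10, here labelled with luciferase and green fluorescent protein. Every mouse received anti-PD-1, an antibody against a receptor that restrains T cells, on days 1, 4 and 8 after cell injection, and tumours were excised on day 13. The RG7112 group, 3 tumours numbered 1, 2 and 3, also received RG7112 by mouth, an MDM2 inhibitor that frees p53 from its negative regulator. The vehicle group, 2 tumours numbered 3 and 4, received corn oil with 5% DMSO in its place, on the same schedule of every 2 days for 6 days. Dosing by mouth started 2 days after injection in both groups. Each tumour came from its own mouse and was hybridised to 1 Clariom S array, and there was no group without anti-PD-1. The labels describe the tissue as melanoma cells mixed with infiltrating immune cells and do not mention endothelium.

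VEGF ligands act on receptor tyrosine kinases of endothelial cells: Kdr (VEGFR2) carries most of the growth signal, Flt1 (VEGFR1) binds VEGF-A tightly and partly acts as a decoy, and Flt4 (VEGFR3) serves mainly lymphatic vessels and sprouting tips. Angiopoietins act through the receptor Tek (Tie2), which keeps vessels quiescent when Angpt1 binds it, while Angpt2, released by activated endothelium, can oppose that signal. In tumours these genes are read as signs of how much endothelium is present and of how actively it sprouts.

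Values are log2 signals, on which a difference of 1 is a doubling of the brightness of a probe; brightness does not compare 1 gene with another. The 5 arrays had medians from 5.76 to 5.81. No detection values were used here, so whether a dim marker was above background is not known. The mean signals of Cdh5, Pecam1 and Kdr lay at the 66.7, 67.7 and 67.2 percentiles of all probes, that of Tie1 at the 53.5 percentile, whereas Tek lay at the 27.7 percentile. The mean log2 signal of 11 melanocyte genes, which the melanoma cells express, was 11.19 ± 0.02 (SD, n = 3) in RG7112 tumours and 11.06 ± 0.04 (SD, n = 2) in vehicle tumours.

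Of the VEGF receptors, Kdr rose in RG7112 tumours by about a doubling, Flt1 was higher by less and did not pass the test, and Flt4 had a difference near 0. Kdr had log2 signals of 7.35, 7.78 and 7.64 in RG7112 tumours 1, 2 and 3, against 6.40 and 6.77 in vehicle tumours 3 and 4. Every RG7112 tumour lay above both vehicle tumours, and the gap between the groups was wider than the spread within either. The group means were 7.59 ± 0.22 (SD, n = 3) with RG7112 and 6.58 ± 0.26 (SD, n = 2) with vehicle, a log2 difference of 1.01 ± 0.19 (SE), or 2.01-fold (limma adjusted p = 0.0203; 95% interval 0.60 to 1.42). In whole-tumour RNA, more endothelial cells and more Kdr RNA per endothelial cell cannot be told apart. The call held without RG7112 tumour 1 (1.13, adjusted p = 0.0154). It was lost without RG7112 tumour 2 (0.91, adjusted p = 0.0796) or RG7112 tumour 3 (0.98, adjusted p = 0.0844). It was also lost without vehicle tumour 3 (0.82) or vehicle tumour 4 (1.19). In these last fits 1 vehicle tumour remained, and fewer of all probes passed. The same limit applies to each call below that is lost without a vehicle tumour.

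Flt1 had signals of 7.30, 7.24 and 7.04 in RG7112 tumours, against 7.02 and 6.48 in vehicle tumours. The groups did not overlap, but RG7112 tumour 3 and vehicle tumour 3 nearly met, and the vehicle tumours differed from each other by more than the group means did. The difference was 0.44 ± 0.19 (SE; adjusted p = 0.520), and it was 0.71 without vehicle tumour 3 and 0.18 without vehicle tumour 4. Flt4 had signals of 5.19, 5.27 and 5.26 in RG7112 tumours, against 5.43 and 5.11 in vehicle tumours. All 3 RG7112 values lay between the 2 vehicle values. Its difference was -0.03 ± 0.16 (SE; adjusted p = 0.984), with a 95% interval from -0.39 to 0.33 that contains both a small fall and a small rise, and its sign turned under quantile normalization (0.02), under cyclic loess normalization (0.05) and without vehicle tumour 3 (0.13).

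The promoters of the VEGF receptors are shown because 1 of these related genes passed the test and the others did not. Sequences are from RefSeq (mouse build GRCm38.p6), each 300 bases from 250 before to 50 after the transcription start, 5′ to 3′ on the strand of the gene. Capitals mark 3 short motifs on either strand: GGAAG (or CTTCC), the core bound by ETS factors, which act in endothelial genes, GGGCGG (or CCGCCC), the GC box, and TATAAA, the TATA box.
Kdr, chr5:75978406-75978705, minus strand: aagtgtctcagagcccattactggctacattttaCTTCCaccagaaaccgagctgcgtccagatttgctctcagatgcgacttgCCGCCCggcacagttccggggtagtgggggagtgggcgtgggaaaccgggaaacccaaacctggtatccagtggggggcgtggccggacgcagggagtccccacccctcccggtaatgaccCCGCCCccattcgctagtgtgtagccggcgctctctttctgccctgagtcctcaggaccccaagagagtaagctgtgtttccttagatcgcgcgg
Flt1, chr5:147725962-147726261, minus strand: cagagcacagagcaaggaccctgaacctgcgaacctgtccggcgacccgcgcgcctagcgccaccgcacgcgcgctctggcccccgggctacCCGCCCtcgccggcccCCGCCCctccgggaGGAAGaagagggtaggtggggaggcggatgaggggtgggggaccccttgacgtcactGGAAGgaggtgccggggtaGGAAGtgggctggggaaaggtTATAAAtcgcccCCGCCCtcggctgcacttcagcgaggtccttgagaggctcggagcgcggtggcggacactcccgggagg
Flt4, chr11:49609429-49609728, plus strand: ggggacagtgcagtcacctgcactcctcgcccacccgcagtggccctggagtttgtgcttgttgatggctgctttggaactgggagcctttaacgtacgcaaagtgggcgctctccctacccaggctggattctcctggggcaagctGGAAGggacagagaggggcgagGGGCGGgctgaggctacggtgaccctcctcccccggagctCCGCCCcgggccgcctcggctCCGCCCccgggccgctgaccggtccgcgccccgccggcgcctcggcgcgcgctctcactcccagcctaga
The Kdr window held 1 GGAAG and 2 GC boxes, the Flt1 window 3 GGAAG, 3 GC boxes and 1 TATAAA, and the Flt4 window 1 GGAAG and 3 GC boxes. No match of one motif overlapped a match of another. Of all 32851 promoter windows of the same length, 71.4% held GGAAG, 35.7% GGGCGG and 13.6% TATAAA. The GATA motif AGATAA and an interferon-stimulated motif, 2 copies of GAAA with any 2 bases between them, were also searched on both strands, and 11.2% and 3.44% of all windows held them. None of the VEGF receptor windows held either, which says only that these letters are not in the window. A match is a description of sequence and not a binding site.

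None of the genes of the angiopoietin axis passed the test, and all 3 had higher means with RG7112. Tek, the angiopoietin receptor, had signals of 4.19, 4.31 and 4.50 in RG7112 tumours, against 4.09 and 4.08 in vehicle tumours. The groups did not overlap, at a low brightness where the vehicle tumours were almost equal. Its difference was 0.25 ± 0.16 (SE; adjusted p = 0.749), and it was 0.16 without RG7112 tumour 3. Tie1, the related receptor that modulates Tek signalling, had signals of 6.07, 6.21 and 6.31 in RG7112 tumours, against 6.04 and 5.80 in vehicle tumours. RG7112 tumour 1 lay just above vehicle tumour 3, and the difference was 0.28 ± 0.16 (SE; adjusted p = 0.705), with 0.16 without vehicle tumour 4. Angpt2 had signals of 7.89, 7.69 and 8.15 in RG7112 tumours, against 7.39 and 7.74 in vehicle tumours. Here the groups overlapped, because RG7112 tumour 2 lay below vehicle tumour 4. Its difference was 0.34 ± 0.19 (SE; adjusted p = 0.674), and it was 0.17 without vehicle tumour 3 and 0.52 without vehicle tumour 4.

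Tie1 and Tek differ in the same motifs, and Tie1 is printed because its window held the most GGAAG among the genes searched, an item chosen after the counts were seen. Capitals again mark GGAAG or CTTCC.
Tie1, chr4:118489800-118490099, minus strand: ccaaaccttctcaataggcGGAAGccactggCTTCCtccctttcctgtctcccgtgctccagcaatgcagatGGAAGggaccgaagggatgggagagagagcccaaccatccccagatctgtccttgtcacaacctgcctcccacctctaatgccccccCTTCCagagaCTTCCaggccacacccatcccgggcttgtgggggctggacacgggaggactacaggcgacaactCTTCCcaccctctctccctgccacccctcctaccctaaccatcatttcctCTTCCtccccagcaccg
The Tie1 window held 7 GGAAG, no GC box and no TATAAA, and 0.234% of all windows held 7 or more. The Tek window held no GGAAG, GC box or TATAAA, and 1 AGATAA. That of Eng held 2 GGAAG. Promoter windows were searched for 6 of the 10 genes, and those of Pecam1, Cdh5, Angpt2 and Aplnr were not analysed here.

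Among the junction and surface genes, Cdh5 was higher by a margin that missed the threshold, Pecam1 was higher by less, and Eng, the brightest, differed least. Cdh5 encodes VE-cadherin, the adhesion protein of endothelial junctions. Its signals were 7.54, 7.59 and 7.20 in RG7112 tumours, against 6.58 and 6.81 in vehicle tumours. All RG7112 tumours lay above both vehicle tumours, and RG7112 tumour 3 was the lowest of them. The means were 7.44 ± 0.21 (SD, n = 3) with RG7112 and 6.69 ± 0.16 (SD, n = 2) with vehicle, a difference of 0.75 ± 0.18 (SE), or 1.68-fold (adjusted p = 0.0811; 95% interval 0.36 to 1.14). With array weights, which gave less weight to RG7112 tumours 1 and 3, Cdh5 passed (0.78, adjusted p = 0.0430).

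Pecam1 encodes CD31, an adhesion protein of endothelium that platelets and many leukocytes also carry. Its signals were 7.48, 7.49 and 7.17 in RG7112 tumours, against 6.95 and 6.99 in vehicle tumours. The groups did not overlap and RG7112 tumour 3 was again the lowest of its group. The difference was 0.41 ± 0.17 (SE; adjusted p = 0.465). Eng encodes endoglin, a co-receptor for BMP and TGF-beta ligands that activated endothelium, macrophages and mesenchymal cells express, and its mean signal lay at the 98.4 percentile of all probes. It had signals of 10.89, 10.81 and 11.10 in RG7112 tumours, against 10.74 and 10.74 in vehicle tumours. The groups did not overlap, by a narrow margin, and the difference was 0.19 ± 0.16 (SE; adjusted p = 0.825), with 0.11 without RG7112 tumour 3.

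Aplnr, a G protein-coupled receptor for apelin found on endothelial cells of growing vessels, had signals of 6.07, 5.83 and 6.26 in RG7112 tumours, against 5.21 and 5.38 in vehicle tumours. All RG7112 tumours lay above both vehicle tumours. The means were 6.05 ± 0.22 (SD, n = 3) with RG7112 and 5.29 ± 0.12 (SD, n = 2) with vehicle. The difference was 0.76 ± 0.18 (SE), or 1.69-fold, and did not pass (adjusted p = 0.0722; 95% interval 0.37 to 1.14). With 1 tumour left out at a time it ran from 0.65 to 0.87.

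**Figure D1:**
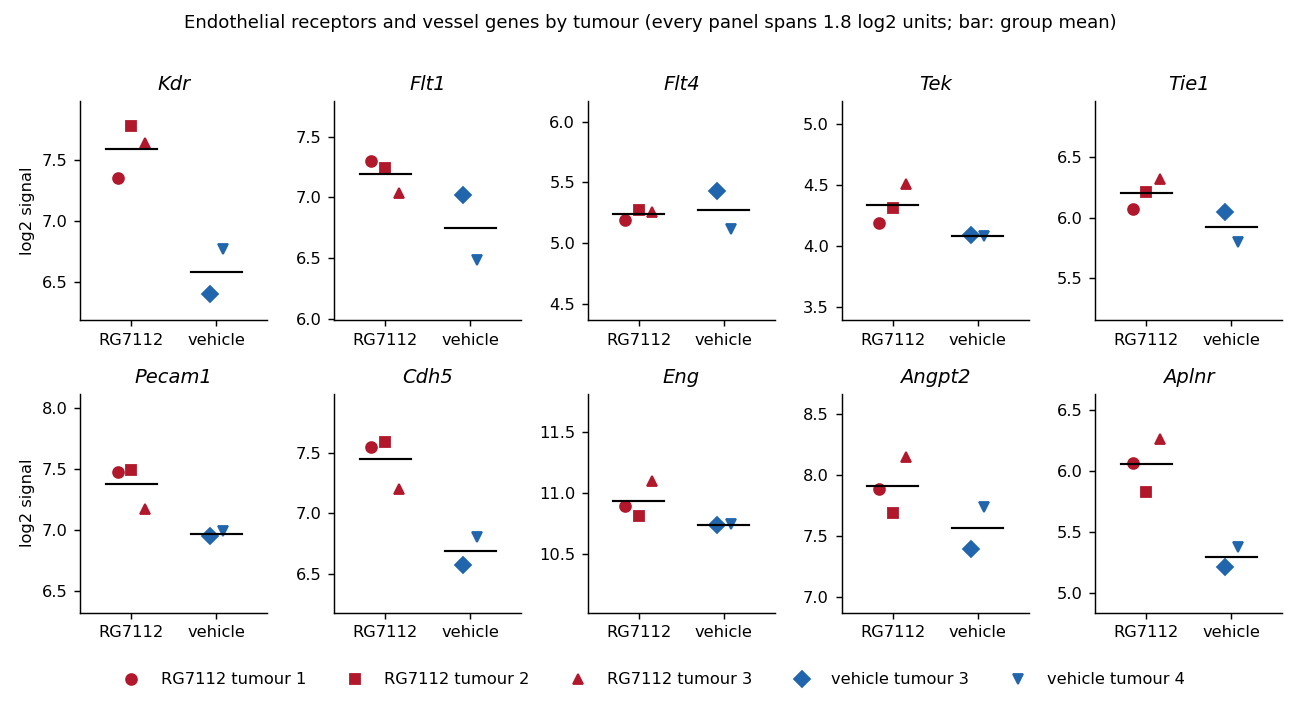
Log2 signal of each of the 10 genes (vertical axis, 1.8 log2 units in every panel) in the 3 RG7112 and 2 vehicle tumours, with 1 symbol per tumour and a bar at each group mean. The groups are widest apart for Kdr, Aplnr and Cdh5, nearly meet for Flt1 and Tie1, and overlap for Flt4 and Angpt2.

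As a group, 1 of the 10 genes rose, 0 fell and 9 did not pass, where 1.42% of all 22203 probes were called higher and 0.0315% lower. The median difference of the 10 genes was 0.38, against -0.03 for all probes, and 9 of the 10 differences were above 0, as were 44.8% of all probes. In 8 of the 10 genes every RG7112 tumour lay above both vehicle tumours, which was so for 10.8% of all probes. The 95% intervals of Kdr, Aplnr, Cdh5, Flt1 and Pecam1 lay wholly above 0, each before adjustment over all probes; 4.83% of all probes were higher at an unadjusted p under 0.05. At adjusted p under 0.10, Kdr, Aplnr and Cdh5 passed, where 387 of all 22203 probes were called higher and 29 lower. The genes are not independent of each other, since endothelial cells express most of them together.

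**Figure D2:**
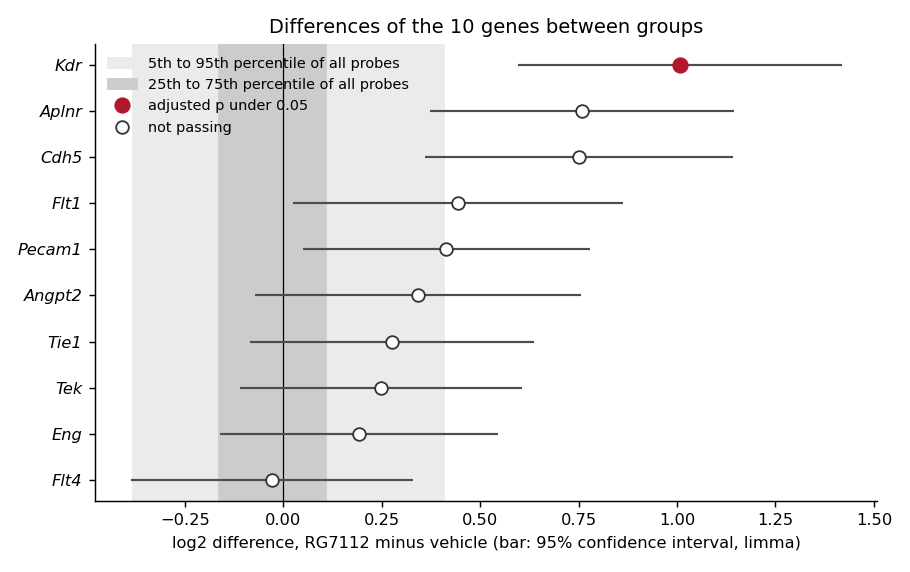
Log2 difference, RG7112 minus vehicle (horizontal axis), of the 10 genes with 95% confidence intervals from limma, over the central ranges of all probes in grey. Kdr (1.01) passed at adjusted p under 0.05, Aplnr (0.76), Cdh5 (0.75), Flt1 (0.443) and Pecam1 (0.414) lie beyond the 95th percentile of all probes (0.408) without passing, and Flt4 (-0.03) lies near 0.

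The tumours were not ordered alike for all genes. RG7112 tumour 3 had the highest signal for 5 genes (Tek, Tie1, Eng, Angpt2 and Aplnr), RG7112 tumour 2 for 3 (Kdr, Pecam1 and Cdh5), RG7112 tumour 1 for Flt1 and vehicle tumour 3 for Flt4. The lowest signal was always in a vehicle tumour, in tumour 3 for 6 genes and in tumour 4 for 4. Within the RG7112 group, tumour 3 was thus high for the angiopoietin axis, endoglin and the apelin receptor and low for Flt1, Cdh5 and Pecam1.

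When each gene was set against the mean of the other 9 in the same tumour, the differences between the groups spread around 0. Kdr was higher relative to the others, by 0.63 ± 0.22 (SE). It had 0.40, 0.84 and 0.65 in RG7112 tumours 1, 2 and 3, against -0.20 and 0.20 in vehicle tumours. Each of these values is relative to the vehicle mean. Aplnr was higher by 0.35 ± 0.18 and Cdh5 by 0.35 ± 0.22. Flt1 (0.00 ± 0.27) and Pecam1 (-0.03 ± 0.18) lay near the average of the others. Flt4 was lower relative to the others (-0.52 ± 0.13), as were Eng (-0.28 ± 0.10), Tek (-0.21 ± 0.11) and Tie1 (-0.18 ± 0.13). These relative values are a description, with no test, and because they are relative some must be below 0. Their SE come from the pooled spread within the groups and not from limma, so they do not compare with the SE given elsewhere.

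**Figure D3:**
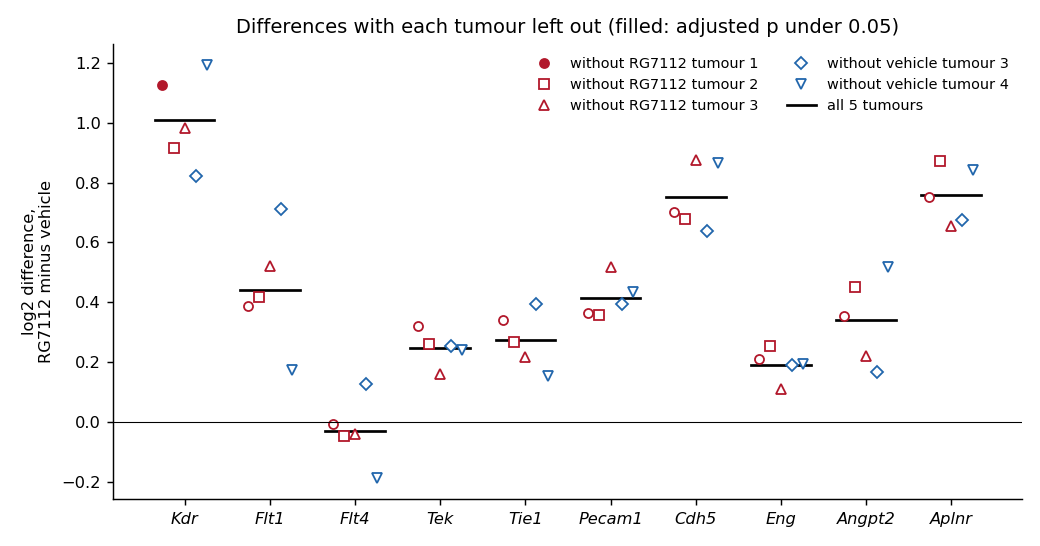
Log2 difference, RG7112 minus vehicle (vertical axis), of the 10 genes with each tumour left out in turn (symbols) and with all 5 tumours (bars); filled symbols have adjusted p under 0.05. Kdr passed in 1 of the 5 reduced sets (without RG7112 tumour 1) and no other gene passed in any, and the vehicle tumours moved Flt1 most, to 0.71 without tumour 3 and 0.18 without tumour 4.

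No ligand of these receptors was called beside Kdr. Of 10 measured ligand genes, 0 passed in either direction, and their median difference was -0.05. Vegfa, the main ligand of Kdr and Flt1, had signals of 9.91, 10.11 and 9.22 in RG7112 tumours, against 10.20 and 9.82 in vehicle tumours. The groups overlapped and the difference was -0.26 ± 0.25 (SE; adjusted p = 0.853). Pgf, placental growth factor, a ligand of Flt1 alone, differed by 0.41 ± 0.26, and Vegfb, another Flt1 ligand, by -0.10 ± 0.22. The Flt4 ligands Vegfc and Vegfd differed by -0.19 ± 0.17 and -0.21 ± 0.23. Angpt1, the activating ligand of Tek, differed by 0.39 ± 0.19, Angpt4 by -0.39 ± 0.19, and apelin, Apln, by 0.00 ± 0.17. The remaining ligand genes, Gdf2 and Bmp10, which encode BMP ligands of endoglin, each differed by 0.04.

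Of 11 co-receptors and signalling partners, 0 passed. The smallest p belonged to Ptprb, the endothelial phosphatase VE-PTP, which restrains Tek and Kdr. Its signals were 5.33, 5.15 and 5.23 in RG7112 tumours, against 4.67 and 4.80 in vehicle tumours, a difference of 0.50 ± 0.16 (SE; adjusted p = 0.249). The neuropilin Nrp2, a co-receptor for VEGF ligands, differed by 0.23 ± 0.15, the integrin chain Itgb3 by 0.33 ± 0.16 and the BMP receptor Acvrl1, the partner of endoglin, by -0.29 ± 0.16.

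Among other endothelial genes, most again did not pass, and differences went both ways. Of 18 further pan-endothelial genes, 2 rose, 0 fell and 16 did not pass, with a median difference of 0.32. Of all probes, 1.42% were called higher, which is the share to set beside each list count below. Cd93, a lectin-like receptor of endothelium that monocytes also express, had signals of 7.73, 7.36 and 7.41 in RG7112 tumours, against 5.85 and 6.48 in vehicle tumours. It rose by 1.33 ± 0.21 (SE; adjusted p = 0.00783), a call lost without vehicle tumour 3 (1.01, adjusted p = 0.153). Ecscr, an endothelial surface protein that modulates VEGF signalling, had signals of 6.15, 5.73 and 5.33 in RG7112 tumours, against 4.46 and 4.66 in vehicle tumours. It rose by 1.17 ± 0.22 (SE; adjusted p = 0.0238), a call lost without RG7112 tumour 2 (adjusted p = 0.0720), vehicle tumour 3 (adjusted p = 0.360) or vehicle tumour 4 (adjusted p = 0.199).

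For Cd93 and Ecscr every RG7112 tumour lay above both vehicle tumours, which was so for 8 of the 18 genes and for 10.8% of all probes. The sialomucin Emcn differed by 0.63 ± 0.17, the adhesion molecule Icam2 by 0.63 ± 0.17, the matrix protein Mmrn2 by 0.62 ± 0.18 and Cd34 by 0.40 ± 0.17, with none passing (adjusted p from 0.146 to 0.492). Of the 18 differences, 12 were above 0, as were 44.8% of all probes, and 6 were below. The 6 were Ushbp1 (-0.34), Esam (-0.21), Nos3 (-0.21), Cyyr1 (-0.12), Clec14a (-0.07) and the receptor S1pr1 (-0.02), with none passing. Not every endothelial gene thus had a higher mean, and the junction protein Cldn5 differed by only 0.03.

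Of 15 transcription factors that act in endothelium, 1 rose, Fli1, an ETS factor also active in leukocytes. Its signals were 7.40, 7.30 and 7.62 in RG7112 tumours, against 6.60 and 6.71 in vehicle tumours, a difference of 0.78 ± 0.16 (SE; adjusted p = 0.0431). The call was lost whichever tumour was left out (differences from 0.69 to 0.86). Its relative Erg, an ETS factor typical of endothelium, differed by 0.72 ± 0.24 (adjusted p = 0.295). The median of the 15 genes was -0.08, and Hhex (0.34 ± 0.17), Lyl1 (0.33 ± 0.22) and Sox17 (-0.22 ± 0.18) did not pass.

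Genes of sprouting tip cells and of Notch signalling, which sets tip against stalk cells, gave 0 calls among 15. Kcne3, a potassium channel subunit found in tip cells, differed by 0.86 ± 0.23 (adjusted p = 0.140) and the Notch target Hes1 by -0.56 ± 0.16 (adjusted p = 0.175). Plaur, the urokinase receptor, differed by 0.56 ± 0.22 and the basement membrane protein Nid2 by 0.46 ± 0.18. Of 10 genes that VEGF induces in cultured endothelium, 1 rose, the nuclear receptor Nr4a2, which many other stimuli and cell types also induce. Its signals were 7.50, 7.65 and 7.02 in RG7112 tumours, against 6.39 and 6.40 in vehicle tumours. It rose by 1.00 ± 0.20 (adjusted p = 0.0308), a call lost without RG7112 tumour 1, RG7112 tumour 2, vehicle tumour 3 or vehicle tumour 4. Nr4a1 (0.36 ± 0.17), Dusp5 (-0.34 ± 0.19), Egr3 (-0.23 ± 0.16) and Rcan1 (0.25 ± 0.21), the last a calcineurin regulator, did not pass.

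Of adhesion molecules of activated endothelium 1 of 8 was called, and of inhibitors of vessel growth 2 of 10. The share called higher of all probes was 1.42%. Vcam1, which binds leukocyte integrins and is also made by macrophages and stroma, had signals of 5.85, 5.80 and 6.11 in RG7112 tumours, against 4.78 and 4.47 in vehicle tumours. It rose by 1.30 ± 0.17 (SE; adjusted p = 0.00284) as 1 of 8 adhesion molecules, a call lost without vehicle tumour 4 (adjusted p = 0.104). P-selectin, Selp, differed by 0.45 ± 0.19, Icam1 by 0.30 ± 0.19 and the mucin-like Glycam1 by -0.15 ± 0.17. Of 10 angiogenesis inhibitors 2 rose, the interferon-induced chemokines Cxcl9 (1.74 ± 0.22) and Cxcl10 (1.65 ± 0.21), both of which attract T cells and can restrain vessel growth. Both calls were lost without vehicle tumour 4 (adjusted p = 0.0816 and 0.0751). Thbs2, a thrombospondin of the matrix, differed by 0.67 ± 0.18, the third chemokine of that group, Cxcl11, by 0.55 ± 0.16, endostatin's parent collagen Col18a1 by 0.28 ± 0.16 and Serpinf1 by -0.27 ± 0.19, with none passing.

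Lymphatic and mural markers were not called. Of 7 genes of lymphatic endothelium, the usual site of Flt4, 0 passed and the median was -0.15. Lyve1, a hyaluronan receptor that some macrophages share, differed by -0.45 ± 0.23, the glycoprotein Reln by -0.20 ± 0.18, the semaphorin Sema3d by -0.22 ± 0.20 and Prox1, the lymphatic master regulator, by -0.15 ± 0.19. Of 11 genes of pericytes and smooth muscle, 0 passed and the median was 0.10. Rgs5, a pericyte marker, differed by 0.57 ± 0.23 (adjusted p = 0.463), the channel subunits Kcnj8 and Abcc9 by -0.27 ± 0.18 and 0.20 ± 0.20, and Tagln by 0.19 ± 0.20.

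**Figure D4:**
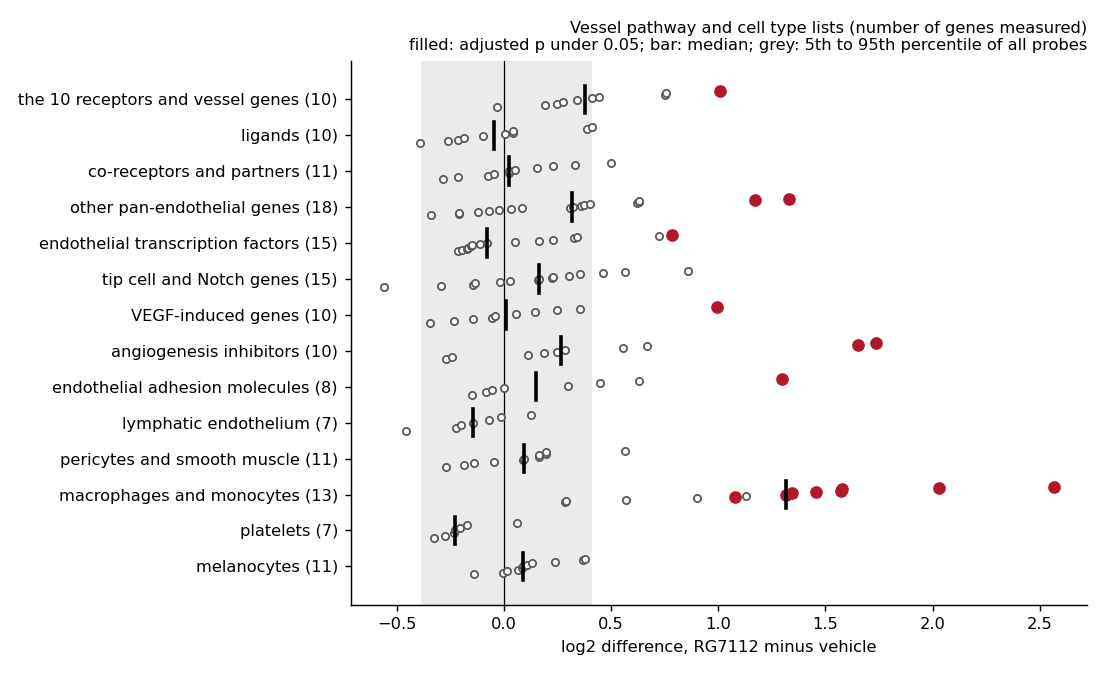
Log2 difference, RG7112 minus vehicle (horizontal axis), of each measured gene of 14 lists, the number of genes in brackets, with bars at list medians and the range from the 5th to the 95th percentile of all probes in grey. The 10 receptors and vessel genes have a median of 0.38, the other pan-endothelial genes 0.32, their ligands -0.05 and the macrophage and monocyte markers 1.32.

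Markers of macrophages and monocytes were also higher in the RG7112 group. Of 13 measured genes 8 rose, 0 fell and 5 did not pass, with a median difference of 1.32. Of all probes, 1.42% were called higher. Their mean signal was 7.40 to 7.80 in RG7112 tumours and 6.19 to 6.50 in vehicle tumours. The called genes were Aif1 (2.57), Ly6c2 (2.03), Adgre1 (1.58), Itgam (1.57), C1qb (1.45), Fcgr1 (1.34), C1qa (1.32) and Csf1r (1.08), which include receptors, complement chains and a marker of inflammatory monocytes. Without vehicle tumour 4 the differences of these 8 genes ran from 0.92 (Csf1r) to 2.49 (Aif1). In that fit 1 vehicle tumour remained, and fewer of these genes and of all probes passed. Lyz2 (0.90), Ccr2 (1.13), Mertk (0.57) and Cd14 (0.29) did not pass. Flt1, Tek, Pecam1, Eng, Cd93, Fli1 and Vcam1 are also expressed by some monocytes or macrophages, and the part of these cells in the differences was not tested. The mean log2 signal of 7 platelet genes was 5.26 to 5.43 in RG7112 tumours and 5.55 to 5.58 in vehicle tumours, and the part of platelets, which carry Pecam1, in its difference was not tested. None of the 7 genes passed, and Gp9 (-0.33 ± 0.17), Gp5 (-0.27 ± 0.15), Tubb1 (-0.23 ± 0.16) and Treml1 (-0.20 ± 0.16) had the smallest p. Of 11 melanocyte genes 0 passed, with a median of 0.09; Oca2 (0.38 ± 0.16), Gpr143 (0.37 ± 0.16), Mlana (0.24 ± 0.16) and Tyr (-0.14 ± 0.16) had the smallest p.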

How the data were processed

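Whole-tumour RNA was profiled on Clariom S mouse arrays, 1 per tumour. The deposited values are log2 signals per probe set, and per the submitters' processing notes the authors used the oligo package and RMA; the sources used here give neither versions nor options. No raw scans, scan dates or slides were used here, so array batches were not examined, and the number of arrays limits the precision. Of 22203 probes, 19572 had 1 gene symbol, 0 several and 2631 none; all 19572 identifiers matched the RefSeq table (GRCm38.p6).

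The difference RG7112 minus vehicle came from limma 3.58.1 in R 4.3.3 (lmFit, eBayes), and p-values were adjusted by Benjamini-Hochberg over all probes, with calls at adjusted p under 0.05 (two-sided; 3 residual and 7.92 prior degrees of freedom). The fit was also run on simulated data, with independent noise on the scale that the fit itself had estimated. That run checked the calculation and not whether the model suits these tumours. The probe with the highest mean stood for a gene. Of 161 genes in 14 lists, 154 were measured; the other 7 were not analysed here. Named were all 10 members and Vegfa, Vegfb, Vegfc, Vegfd, Pgf, Angpt1 and Apln. Also named were every called list gene and up to 4 others per list with the smallest p. Cldn5, S1pr1, Ushbp1, Esam, Nos3, Cyyr1, Clec14a, Gdf2 and Bmp10 were chosen after their values were seen. The members and lists were chosen with earlier results of these data known. Promoters were counted for motifs by exact match; protein sequences were not used here. Alternatives were other eBayes priors, array weights, renormalization, probe filters, thresholds and leaving out each tumour.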

Additional observations from a re-analysis of the deposited data

How the results depend on the processing

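Kdr, Flt1, Tek, Tie1, Pecam1, Cdh5, Eng, Angpt2 and Aplnr were higher in RG7112 tumours in every refit and Flt4 turned sign in 3 of them, to 0.019 under quantile and 0.052 under cyclic loess normalization and 0.13 without vehicle tumour 3 (-0.19 to 0.13 with a tumour left out). The Kdr difference ran from 0.82 to 1.19 (adjusted p from 0.0100 to 0.370). Tek was not tested without dim probes. No paired analysis was run, because the labels do not pair tumours across the groups. With 2 vehicle tumours, a fit that leaves one out assumes that the lone tumour varies like the RG7112 tumours, and no exact test of a single value could go below p = 0.1. Signal over background could not be judged, since no detection values were used here.

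Leaving out each tumour in turn gave 65 to 268 probes called higher and 0 to 5 lower, and 0 to 1 of the 10 genes called higher. Probes called lower numbered 16 with array weights, 4 with cyclic loess, 2 without dim probes and 29 at adjusted p under 0.10, against 7. The 10 genes had 2 calls with array weights and 3 at adjusted p under 0.10. Of all 22203 probes, 358 were called higher with array weights and 387 at adjusted p under 0.10. With a tumour left out, called genes numbered 0 to 2 among other pan-endothelial genes, 0 among transcription factors (also 0 under quantile normalization), 0 to 1 among tip cell genes, 0 to 1 among VEGF-induced genes (0 under quantile normalization), 0 to 2 among angiogenesis inhibitors, 0 to 1 among adhesion molecules and 1 to 9 among macrophage genes. List medians then ran from -0.023 to 0.14 for co-receptors, 0.19 to 0.35 for other pan-endothelial genes, -0.088 to 0.11 for transcription factors, 0.068 to 0.27 for tip cell genes, 0.10 to 0.29 for adhesion molecules, -0.013 to 0.13 for pericytes, 1.11 to 1.45 for macrophages, -0.28 to -0.14 for platelets and 0.072 to 0.15 for melanocytes. The median of ligands was -0.14 without dim probes, that of co-receptors -0.027 under quantile normalization, that of pericytes 0.16 under cyclic loess, and that of adhesion molecules 0.19 under quantile normalization, 0.21 under cyclic loess and 0.63 without dim probes. The causes of these shifts were not tested. Fits without a tumour or without dim probes used fewer tumours or probes, while the other settings named here used all of them.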
